A study of Kluyveromyces lactis with 12 samples.

Results

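ARR1, also called YAP8, and its chromosome neighbour ARR2 were followed in Kluyveromyces lactis, a budding yeast, in a strain deleted for Klyap8 and in the wild type. Both genes were found by their systematic names, KLLA0E00265g for ARR1 and KLLA0E00243g for ARR2, among the spots of the array scans. They are 2 of the 5081 genes on the array, and both were among the 5069 genes that passed the filter on dim spots. Each gene was read by a single probe printed at 2 spots.

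RNA was measured on 12 two-colour arrays, each carrying Klyap8 deletion RNA in one dye and wild-type RNA of the same condition in the other. In the first condition the deletion strain and the wild type were exposed to sodium arsenite, an arsenic(III) salt, for 30 min. The treatment labels give 25 mM for arsenite and the treatment protocol gives 0.1 mM, and nothing in the sources used here settles which was used. In the second, both strains received t-BOOH, short for tert-butyl hydroperoxide, an organic peroxide, at 0.25 mM for 30 min. In the third, both strains were left untreated. Cells of every group grew in YPD, a rich medium, and were in exponential phase. The design gives 4 biological experiments per condition without saying what separated them. The limma p-values use a spread per gene pooled over all 12 arrays and drawn towards that of all genes tested. They do not measure the spread between the 4 experiments of a condition alone. Neither the extent of the Klyap8 deletion nor its replacement is described in the labels.

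In Saccharomyces cerevisiae, Arr1 is a transcription factor of the AP-1 (basic leucine zipper) family that is needed for arsenic resistance. It activates its neighbours ARR2, which encodes an arsenate reductase, and ARR3, which encodes a plasma membrane arsenite exporter. Arsenate is reduced to arsenite inside the cell before it is exported, and the arsenite that remains can be joined to glutathione and moved into the vacuole by the transporter Ycf1. The K. lactis gene names used here follow those of S. cerevisiae, and no measured gene carried the symbol ARR3, which was not analysed here.

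Median signals per array lay between 719 and 3048.75 units for Cy3 and between 2373.75 and 7526 units for Cy5, at least 93.9% of gene spots stood well above background on every array, and 0 were saturated. In each condition, 2 of the 4 arrays had the dyes swapped. The untreated and arsenite arrays shared slide 1 and the t-BOOH arrays lay on slide 2, so slide and treatment cannot be told apart wherever t-BOOH is set against another condition. Within a condition both strains shared each array and slide, so the limit does not apply to the ratio itself. It applies to differences of the ratio, and of each strain's level, between t-BOOH and another condition. Every t-BOOH response of a strain given below is such a difference. Within their conditions, t-BOOH replicates 3 (mean r of log2 ratios with the other arrays of the condition 0.034) and 1 (0.414) and untreated replicate 4 (0.168) were least like the rest. Results were also computed without these 3 arrays, called below the 3 that stood apart. Apart from t-BOOH replicate 3 the margins were small, with 0.463 for t-BOOH replicate 4 and 0.191 for untreated replicate 3. Arsenite replicate 4 (0.444), the lowest of its condition, was not among them.

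On all 12 arrays the ARR1 probe gave less signal in the deletion strain, but it did not vanish. Under arsenite ARR1 had log2 ratios (deletion over wild type) of -2.20, -2.05, -2.19 and -1.93. Under t-BOOH they were -1.79, -1.59, -1.56 and -1.81. Without treatment they were -1.36, -1.22, -1.34 and -0.61. The 4 arsenite arrays lay below every untreated and every t-BOOH array, and untreated replicate 4 showed the smallest loss of the 12 arrays.

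Averaged by condition, ARR1 was 4.26-fold lower in the deletion strain under arsenite (log2 ratio -2.09 ± 0.13, SD, n = 4; limma, Benjamini-Hochberg adjusted p = 9.22e-07), a comparison in which 4.30% of all tested genes passed the threshold, an adjusted p under 0.05, in either direction. Under t-BOOH it was 3.22-fold lower (-1.69 ± 0.13, SD, n = 4; limma adjusted p = 8.10e-06), where 18.0% of genes passed. Without treatment it was 2.19-fold lower (-1.13 ± 0.35, SD, n = 4; limma adjusted p = 1.62e-04), where 0.612% of genes passed. The signal left in the deletion strain was thus 23.5% of the wild-type signal under arsenite, 31.1% under t-BOOH and 45.6% untreated. The arrays measured RNA of whole cultures, in which fewer cells holding an RNA and less of it per cell cannot be told apart.

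The remaining ARR1 signal was bright. Before normalization, the background-subtracted spots in the deletion strain ranged over 661 to 3699 intensity units, against 1695.5 to 14070 units in the wild type. On every array the dimmer ARR1 spot in the deletion strain was at least 13.7 times the brightest of the 180 negative control spots of the same channel. Of 24 ARR1 spots in each strain, 24 were well above background. The labels and files do not place the probe relative to the deleted part of the gene, so it cannot check the deletion, and which RNA gave this signal was not tested.

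ARR2 was lower in the deletion strain on every array too, and far more so under arsenite. The arsenite arrays gave log2 ratios of -4.19, -4.33, -4.40 and -4.68. The t-BOOH arrays gave -1.84, -2.05, -2.05 and -1.83. The untreated arrays gave -1.46, -1.50, -1.58 and -2.06. Every arsenite value lay below every value of the other conditions, whereas t-BOOH and untreated values overlapped through untreated replicate 4.

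Under arsenite the deletion strain held 4.74% of the wild-type ARR2 signal, a 21.1-fold difference and the lowest ratio among the 5069 genes tested (log2 ratio -4.40 ± 0.21, SD, n = 4; limma adjusted p = 1.08e-10). Under t-BOOH it held 26.0%, 3.85-fold less than the wild type (-1.95 ± 0.12, SD, n = 4; limma adjusted p = 1.30e-06). Without treatment it held 31.8%, 3.14-fold less (-1.65 ± 0.28, SD, n = 4; limma adjusted p = 1.85e-05). With other processing settings or subsets of the arrays, this untreated log2 ratio ran over -2.14 to -1.49. For comparison, the median SD of a gene's ratio over the 4 arrays was 0.201 for arsenite, 0.263 for t-BOOH and 0.226 for untreated arrays.

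**Figure D1:**
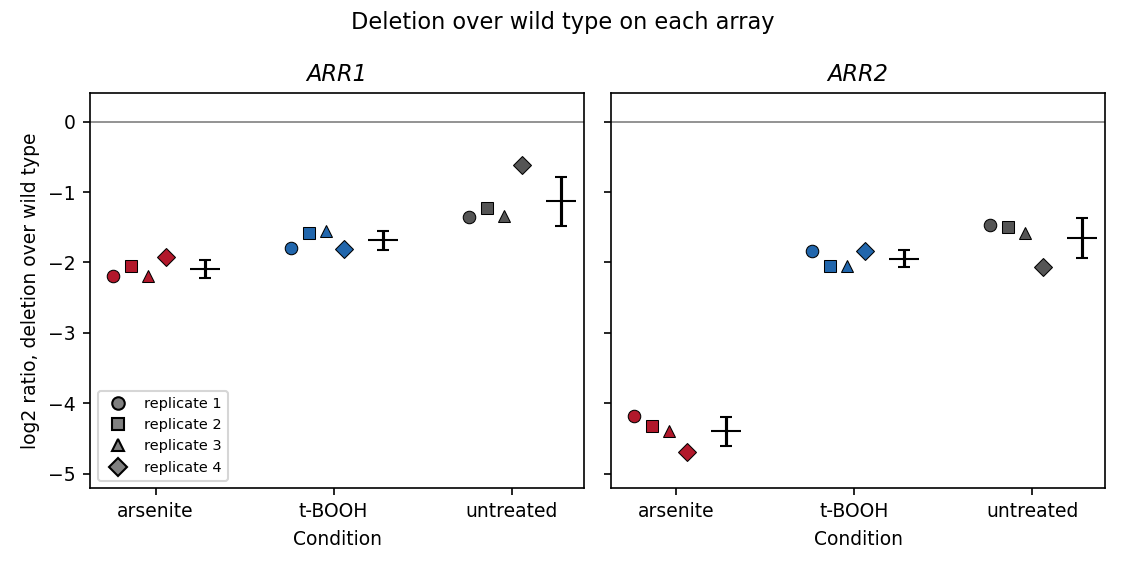
Log2 ratio of deletion over wild type for ARR1 (left) and ARR2 (right) on each of the 12 arrays, by condition, with marker shapes for the replicate and bars for the mean ± SD of 4 arrays. All points lie below 0, and the arsenite values of ARR2, from -4.68 to -4.19, stand apart from the rest.

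The spots and dyes were compared for each gene. The 2 spots of a gene on an array differed by a median of 0.036 log2 units for ARR1 and 0.053 for ARR2, and by 0.127 at most. The dye term of the model was -0.01 for ARR1 (limma adjusted p = 0.974) and 0.00084 for ARR2 (limma adjusted p = 0.996). By condition, the mean log2 ratio with the deletion in Cy5 and in Cy3 (2 arrays each) was -1.99 and -2.19 for ARR1 under arsenite, -1.67 and -1.70 under t-BOOH, and -1.28 and -0.98 untreated. For ARR2 it was -4.50 and -4.29 under arsenite, -1.95 and -1.94 under t-BOOH, and -1.54 and -1.76 untreated, so the gaps under arsenite and untreated ran in opposite directions.

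The loss of ARR2 differed between conditions by the test of that difference. For ARR2 the log2 ratio was lower under arsenite than untreated (difference -2.75, 95% interval -3.10 to -2.39; limma adjusted p = 2.64e-06), a further 6.71-fold, in a comparison where 0.0395% of genes passed. It was also lower under arsenite than under t-BOOH (-2.45, 95% interval -2.81 to -2.10; limma adjusted p = 1.03e-05), where 8.01% of genes passed and where slide and condition cannot be told apart. Between t-BOOH and untreated the ARR2 difference was -0.29 (95% interval -0.65 to 0.06; limma adjusted p = 0.293), where 2.84% of genes passed. This last difference passed with array weights (-0.46, limma adjusted p = 0.0244), in which t-BOOH replicate 2 weighed 6.22 and the other t-BOOH arrays 0.23 to 1.18. It was -0.45 without untreated replicate 4 (limma adjusted p = 0.111) and -0.53 without the 3 arrays that stood apart (limma adjusted p = 0.0811). With the scanner's processed signals it was -0.068 (limma adjusted p = 0.917).

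For ARR1 the same 3 differences were negative but did not pass the threshold. Arsenite minus untreated was -0.96 (95% interval -1.33 to -0.59; limma adjusted p = 0.0963). T-BOOH minus untreated was -0.55 (95% interval -0.92 to -0.18; limma adjusted p = 0.0838), and arsenite minus t-BOOH was -0.40 (95% interval -0.77 to -0.03; limma adjusted p = 0.155). With each array weighted by its own spread, all 3 passed (limma adjusted p = 0.00816, 0.0407 and 0.00294). T-BOOH replicate 2 then had a weight of 6.22, against 0.39, 0.23 and 1.18 for t-BOOH replicates 1, 3 and 4. The weighted t-BOOH values thus rested largely on that array. The t-BOOH minus untreated difference also passed without t-BOOH replicate 3 (limma adjusted p = 0.0355). That difference was smaller without untreated replicate 4 (-0.36, limma adjusted p = 0.145) and without the 3 arrays that stood apart (-0.29, limma adjusted p = 0.255).

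Set against each other on the same array, ARR2 had the lower ratio on 12 of 12 arrays. Under t-BOOH the gap was as small as -0.024 log2 units, while the 2 spots of a gene differed by up to 0.127. The ARR2 log2 ratio minus the ARR1 log2 ratio averaged -2.31 ± 0.32 under arsenite, -0.26 ± 0.25 under t-BOOH and -0.52 ± 0.63 untreated (SD, n = 4 each). Under t-BOOH it ranged over -0.49 to -0.024. Untreated replicate 4 gave -1.45 and the other untreated arrays -0.28 to -0.10. Under arsenite the pair's difference ranged over -2.76 to -1.99, and without treatment over -1.45 to -0.10, so those arrays did not overlap. The difference between these conditions was -1.79 (exact two-sided permutation test, p = 0.0286, the smallest that 4 against 4 arrays allow; adjusted over the 2 comparisons, p = 0.0571). With the processed signals it was -1.46 and without the normexp offset -1.56, each with an adjusted p of 0.229 in the exact permutation test, which is above the smallest possible. Between t-BOOH and untreated arrays it was 0.26 (exact two-sided permutation test, p = 0.6, adjusted p = 0.6).

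Channel levels, in log2 units of normalized intensity, show in which strain each gene moved. ARR1 in the deletion strain stood at 10.31, 10.40, 10.26 and 10.31 under arsenite, at 11.13, 10.72, 10.60 and 10.61 under t-BOOH, and at 10.58, 10.53, 10.44 and 11.30 untreated. In the wild type it stood at 12.51, 12.45, 12.45 and 12.23 under arsenite, at 12.92, 12.30, 12.16 and 12.42 under t-BOOH, and at 11.94, 11.75, 11.78 and 11.91 untreated. Every deletion level was below every wild-type level, and within the wild type both stresses lay above all untreated values. Ordered by mean, the levels ran from wild type with t-BOOH (12.45) and wild type with arsenite (12.41), which overlapped, to wild type untreated (11.84), then deletion with t-BOOH (10.77) and deletion untreated (10.71), which overlapped, and deletion with arsenite (10.32).

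ARR2 covered a much wider range of its own probe's levels. In the deletion strain it stood at 8.49, 8.78, 8.80 and 8.84 under arsenite, at 9.83, 9.02, 9.21 and 9.16 under t-BOOH, and at 7.98, 7.87, 7.72 and 7.18 untreated. In the wild type it stood at 12.67, 13.11, 13.20 and 13.52 under arsenite, at 11.67, 11.07, 11.27 and 10.99 under t-BOOH, and at 9.44, 9.37, 9.30 and 9.24 untreated. By mean the order was wild type with arsenite (13.13), wild type with t-BOOH (11.25), wild type untreated (9.34), deletion with t-BOOH (9.30), deletion with arsenite (8.73) and deletion untreated (7.69). The only neighbours in this order whose arrays overlapped were deletion with t-BOOH and wild type untreated. T-BOOH replicate 1 gave the highest t-BOOH level of both genes in both strains.

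**Figure D2:**
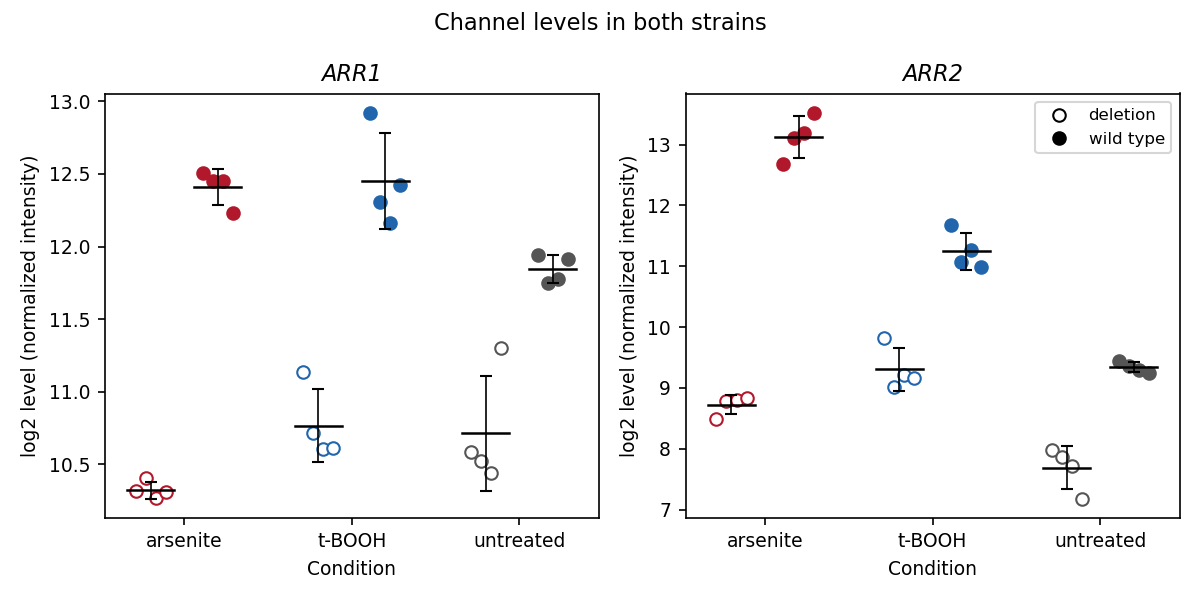
Log2 channel levels of ARR1 (left) and ARR2 (right) in the deletion strain (open points) and the wild type (filled points) under arsenite, t-BOOH and no treatment, with bars for the mean ± SD of 4 arrays. Each panel has its own scale; ARR2 spans 7.18 to 13.52 and ARR1 10.26 to 12.92.

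Before normalization, ARR2 spots in the deletion strain ranged over 38.5 to 924.5 intensity units, against 449 to 20462 units in the wild type. All 24 of 24 spots in each strain were well above background. The dimmest deletion spot, in untreated replicate 4, was 1.1 times the brightest negative control spot, so ARR2 on that array lay close to the floor of the measurement. In untreated replicates 1, 2 and 3 the dimmer deletion spot was 7.76, 16.1 and 18.9 times the brightest negative control. In the wild type the ARR2 spots were at least 12.5 times that control on every array.

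In the wild type, arsenite raised ARR2 13.8-fold (log2 difference from untreated 3.79, SE 0.20, n = 4; limma adjusted p = 2.60e-11), the fourth highest rise among the 5069 genes, in a comparison where 22.4% of genes passed in either direction. T-BOOH raised it 3.77-fold (1.91, SE 0.20, n = 4; limma adjusted p = 1.15e-07), where 48.9% of genes passed. The wild-type level of ARR2 was 3.67-fold higher under arsenite than under t-BOOH (1.88, n = 4 each; limma adjusted p = 2.22e-07), where 50.6% of genes passed. With no normalization between arrays the t-BOOH rise was 1.03 and remained past the threshold, while the median of all genes moved by -0.47.

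ARR2 also rose in the deletion strain, to lower levels. Arsenite raised it 2.06-fold there (log2 difference 1.04, SE 0.20, n = 4; limma adjusted p = 1.81e-03), where 10.2% of genes passed. With other processing settings or subsets of the arrays, this log2 difference ran over 0.85 to 1.53. Under t-BOOH, again on another slide than untreated, ARR2 was 3.07-fold higher (1.62, SE 0.20, n = 4; limma adjusted p = 1.36e-06), where 42.9% of genes passed. With no normalization between arrays the t-BOOH rise was 0.74 (limma adjusted p = 0.0807), or 1.22 above the median of all genes. The arsenite and untreated arrays shared a slide, and fitted on that slide alone the arsenite rise of ARR2 passed in the deletion strain (1.04, limma adjusted p = 0.00150) and in the wild type (3.79, limma adjusted p = 2.78e-09). That fit compares the same channel levels, so only the spread behind the p-values could change, not the size of the rise.

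In the deletion strain the ARR2 level was 1.49-fold lower under arsenite than under t-BOOH (log2 difference -0.58, SE 0.20; limma adjusted p = 0.0249), where 43.7% of genes passed. This call was lost without arsenite replicate 1 or 2, without t-BOOH replicate 1, without the 3 arrays that stood apart (-0.34, limma adjusted p = 0.0832) and with several other settings, and with no normalization between arrays the difference was 0.54. The difference between the strains in this contrast is the -2.45 given above.

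ARR1 moved less than ARR2 in the wild type. Arsenite raised it 1.48-fold (log2 difference 0.57, SE 0.19, n = 4; limma adjusted p = 0.0360) and t-BOOH raised it 1.53-fold (0.61, n = 4; limma adjusted p = 0.0116). The arsenite call was lost on leaving out replicate 1, 2 or 3 of either the arsenite or the untreated arrays (limma adjusted p up to 0.119) and with the second spot alone (limma adjusted p = 0.0710). It was also lost with no normalization between arrays (0.89, or 0.63 above the median of all genes, limma adjusted p = 0.0543). The t-BOOH call was lost with quantile normalization (0.46, limma adjusted p = 0.0635), and with no normalization between arrays the difference was -0.00443, or 0.46 above the median of all genes. Arsenite and t-BOOH levels differed by -0.04 (95% interval -0.44 to 0.35; limma adjusted p = 0.865).

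At the ARR1 probe in the deletion strain no response passed the threshold in the fit of all arrays. The log2 difference from untreated was -0.39 under arsenite (95% interval -0.79 to 0.00485; limma adjusted p = 0.224) and 0.05 under t-BOOH (95% interval -0.34 to 0.45; limma adjusted p = 0.845). Arsenite minus t-BOOH was -0.45 (limma adjusted p = 0.0635). Untreated replicate 4, whose deletion level of 11.30 stood above the other 3, enters the 2 differences from untreated, and without it arsenite minus untreated was -0.18 and t-BOOH minus untreated 0.26. Without that array arsenite minus t-BOOH passed the threshold (-0.45, limma adjusted p = 0.0112), as it did with quantile normalization (-0.60, limma adjusted p = 0.0180) and without the 3 arrays that stood apart (-0.38, limma adjusted p = 0.00474), and with no normalization between arrays it was 0.49 (limma adjusted p = 0.147).

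**Figure D3:**
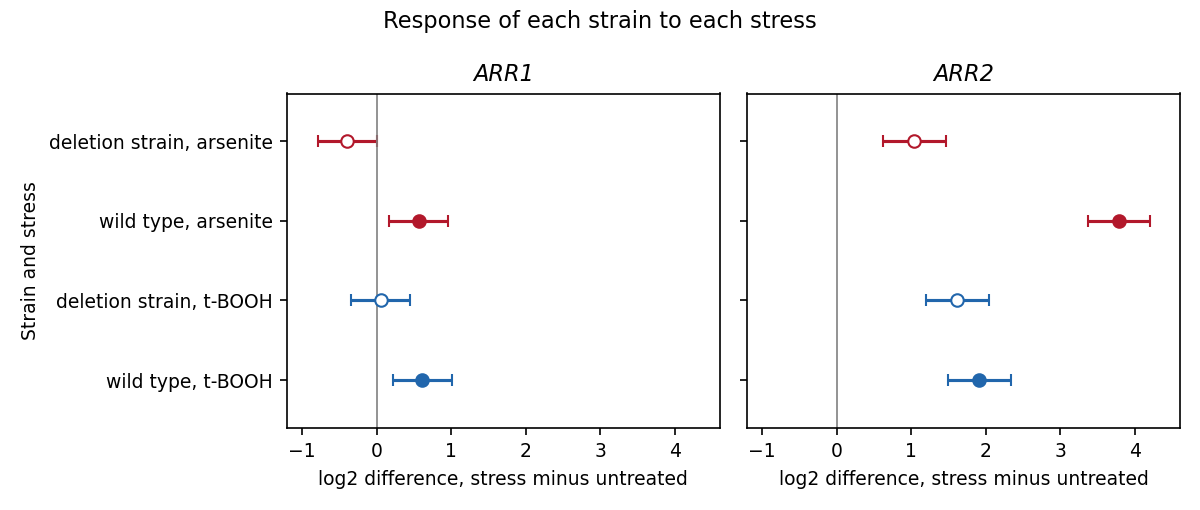
Log2 difference of each stress from untreated for ARR1 (left) and ARR2 (right) in the deletion strain (open) and the wild type (filled), with 95% intervals from the separate-channel model on 4 arrays per condition. The arsenite rise of ARR2 is 1.04 in the deletion strain and 3.79 in the wild type, while the t-BOOH rises, 1.62 in the deletion strain and 1.91 in the wild type, have overlapping intervals.

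In the RefSeq gene order of chromosome E, ARR2 and ARR1 are the sixth and the seventh genes from the chromosome end. Of the 10 genes that flank them, 5 on each side, 2 had a called ratio of deletion over wild type, and these were the outermost ones, KLLA0E00111g and KLLA0E00133g. KLLA0E00111g had log2 ratios of -2.42 under arsenite, -1.41 under t-BOOH and -2.31 untreated. KLLA0E00133g had -2.60, -2.35 and -2.03 in the same order. KLLA0A00110g of chromosome A, chosen after its values were seen, gave -2.41, -1.41 and -2.32, nearly those of KLLA0E00111g, so whether that probe reads 1 gene or several was not tested. The other 8, among them the 3 genes between this outer pair and ARR2, had ratios between -0.46 and 0.11 under arsenite, -0.42 and 0.07 under t-BOOH, and -0.37 and 0.29 untreated, and 0 of 8 passed limma's threshold in any of the 3 conditions, in which 4.30%, 18.0% and 0.612% of all tested genes passed in the same order. At an unadjusted p under 0.05 the count was 1 of 8 under arsenite, 2 under t-BOOH and 2 untreated.

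The immediate neighbour of ARR2, KLLA0E00221g, was itself stress-responsive without a called difference between strains. It rose by 1.85 log2 units under arsenite and 2.96 under t-BOOH in the deletion strain, against 1.95 and 3.09 in the wild type. Its deletion over wild type ratios were -0.18 under arsenite, -0.21 under t-BOOH and -0.07 untreated. On the other side, the gene next to ARR1, KLLA0E00287g, had ratios of 0.05, -0.08 and 0.12 in the same order. OPT1, named after an oligopeptide transporter of S. cerevisiae, rose under arsenite by 1.19 in the deletion strain and 1.17 in the wild type, and fell under t-BOOH by 0.81 in the deletion strain and 0.79 in the wild type.

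**Figure D4:**
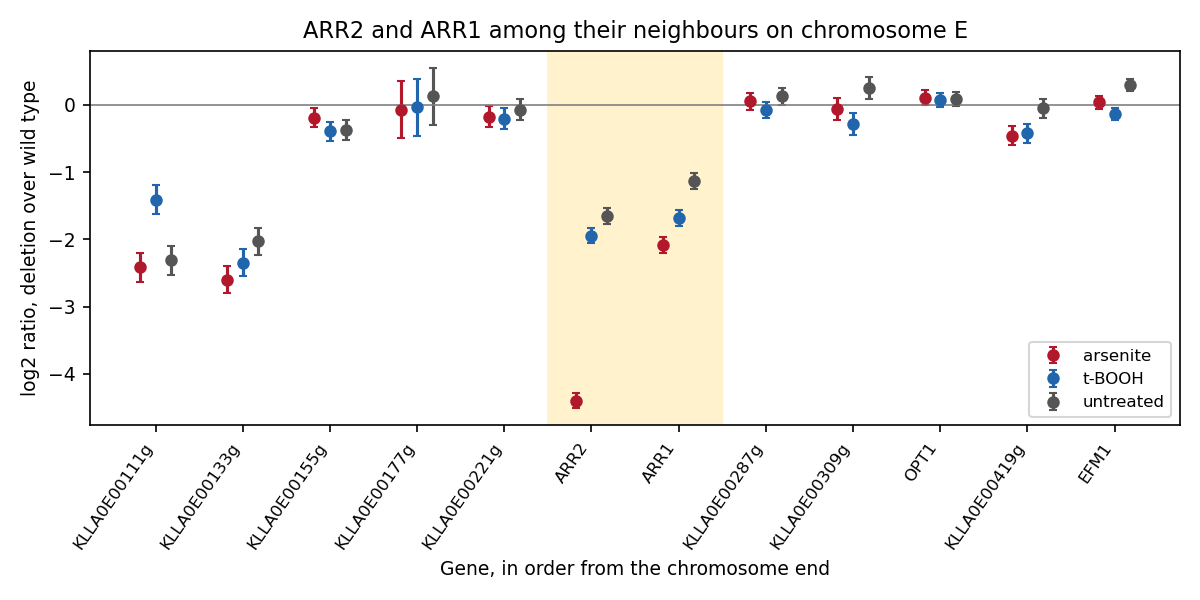
Log2 ratio of deletion over wild type (± SE, 4 arrays per condition) for ARR2, ARR1 (shaded) and the 10 genes around them, in order from the chromosome end. The 2 outermost genes and the shaded pair lie below -1 in all 3 conditions, and the other 8 lie between -0.46 and 0.29.

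The genes with the most similar patterns were ranked by Pearson's r over the same 12 arrays, as a description only, since the points share arrays, strains and conditions. Over the 12 ratios, the closest to ARR1 were PKH3 (0.93), STN1 (0.92), STE6 (0.90), SSN2 (0.88) and ETR1 (0.88). The closest to ARR2 were KLLA0F00682g (0.86), KLLA0D02420g (0.86), FMP33 (0.84), SNT2 (0.83) and STN1 (0.82). Pearson's r compares the shape of a pattern and not its level, and each of these genes had a positive mean ratio untreated, unlike ARR1 and ARR2. PKH3 had log2 ratios of -0.31 under arsenite, -0.11 under t-BOOH and 0.19 untreated. KLLA0F00682g had -1.05, 0.59 and 0.34 in the same order. ARR1 and ARR2 themselves correlated at 0.71 in ratios, which placed ARR2 at rank 76 for ARR1 and ARR1 at rank 82 for ARR2.

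Over the 24 channel levels the members were closer to each other, with an r of 0.80. The other genes closest to ARR1 were KLLA0C06677g (0.82), KLLA0D08976g (0.81), PHO92 (0.77) and INO1 (0.76). Those closest to ARR2 were KLLA0E20637g (0.81), SRT1 (0.80), KAR4 (0.78) and KLLA0D08976g (0.78).

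Genes of arsenic transport, glutathione synthesis, thiol redox control and stress signalling were taken as a list of 39 symbols. Of these, 22 were the annotated symbol of a tested gene, and 20 were other than ARR1 and ARR2. A symbol without a match does not mean that the gene was not measured, since it may be annotated under another name. In the ratio of deletion over wild type, 1 of these 20 was called by limma under arsenite, 0 under t-BOOH and 0 untreated, beside 4.30%, 18.0% and 0.612% of all tested genes, and at an unadjusted p under 0.05 the counts were 4, 4 and 1 in the same order. Without t-BOOH replicate 3, 5 of the 20 were called lower under t-BOOH, and without untreated replicate 4, 1 was. The called gene was SRX1, which encodes sulfiredoxin, an enzyme that reactivates oxidized peroxiredoxins, at a log2 ratio of -0.83 (limma adjusted p = 0.00419). Without arsenite replicate 2 it was not called, and without arsenite replicate 4 or t-BOOH replicate 1 the count was 2. The median ratio of the 20 was -0.17 under arsenite, -0.12 under t-BOOH and -0.03 untreated, beside 0.00, 0.00 and 0.01 over all tested genes.

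Several of the 20 genes responded to the stresses in both strains. Under arsenite, 5 rose and 1 fell in the deletion strain, against 6 and 1 in the wild type, while 6.45% of all tested genes rose and 3.77% fell in the deletion strain and 12.3% rose and 10.1% fell in the wild type. The median response of the 20 was 0.30 in the deletion strain and 0.54 in the wild type, beside -0.03 over all genes in each. SRX1 rose by 2.41 in the deletion strain and 3.14 in the wild type, GPX2, a glutathione peroxidase, by 1.52 and 1.59, and YCF1 by 1.09 and 1.46, all in log2 units. Without t-BOOH replicate 1 the arsenite counts were 8 higher in the deletion strain and 11 higher in the wild type.

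Under t-BOOH, 6 of the 20 rose and 1 fell in the deletion strain, against 9 and 1 in the wild type, while 23.4% of all genes rose and 19.5% fell in the deletion strain and 26.9% rose and 22.0% fell in the wild type. The median response of the 20 was 0.41 in the deletion strain and 0.40 in the wild type, beside 0.07 over all genes in each. SRX1 rose by 3.52 in the deletion strain and 3.50 in the wild type. GSH2, which encodes glutathione synthetase, rose by 1.41 and 1.54 in the same order.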

How the data were processed

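RNA of the 2 strains was compared on 12 two-colour arrays. The file headers name Feature Extraction 10.7.3.1 as the scanner software. Its median spot and local background brightness were deposited as raw intensity values. The software's processed signals, also deposited as intensity, are background-subtracted with the dyes balanced, as the headers record. The authors' own log2 values per array stand in a further deposited table. Set against the scans they ran as deletion over wild type (r 0.991 to 0.999, column medians -0.03 to 0.01), and how the authors normalized and centred them is not stated in the labels or files.

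Groups and dyes were taken from the labels. Background was corrected with normexp (offset 50) and ratios were normalized by loess within arrays in R 4.3.3 with limma 3.58.1. Control spots were left out, spots of a gene were averaged, and genes well above background on fewer than 4 arrays were dropped. Ratios were fitted with limma on all 12 arrays with condition and dye as terms, and channel levels with limma's separate-channel model after Aquantile normalization between arrays (intraspot correlation 0.640). P-values were Benjamini-Hochberg adjusted over the 5069 genes tested. Precision is limited by the number of arrays. The scripts were tested on simulated data. Gene names and order came from RefSeq assembly ASM251v1, in which 5069 of the 5081 genes on the array, by coincidence as many as were tested, had an entry. Neither labels nor headers name the array's genome build, so no coordinates are printed.

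The members and lists were chosen with earlier results of these data known. Named genes were both members, the 5 genes on each side of the pair, the 5 most alike per measure, and up to 6 called genes of the arsenic and glutathione list per comparison. Alternatives changed the background correction, normalization, filter, spots, dye term, array weights, replicate block and arrays. The labels do not say whether an equal replicate number marks a shared culture or day, and samples were not paired by it. Over 12 same-numbered pairs of arrays the correlation of deviations from the condition means was -0.32 to 0.35, with 6 of 12 over 0.1. These were deviations of ratios, in which an effect common to both strains cancels, so they cannot settle whether numbers paired the samples.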

Additional observations from a re-analysis of the deposited data

Results flagged for a closer look

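Of the 18 sets of 4 arrays tested with Dixon's criterion, 2 held a value far from the other 3, and chance alone would mark about 1 set in 20. One was the ARR1 level in the untreated deletion strain, where replicate 4 stood at 11.30 and the others between 10.44 and 10.58. The second was the ARR2 level in the deletion strain under arsenite, where replicate 1 stood at 8.49 and the others between 8.78 and 8.84.

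Among ARR1, ARR2 and the arsenic and glutathione list, the effects of the deletion that differed between conditions by a test of the difference were those of ARR2 and SRX1. Over all tested genes, 0.0395% passed that test for arsenite against untreated and 8.01% for arsenite against t-BOOH. The ARR2 log2 ratio differed by -2.75 between arsenite and untreated arrays and by -2.45 between arsenite and t-BOOH arrays. SRX1, of the arsenic and glutathione list, differed by -0.76 between arsenite and t-BOOH arrays (limma adjusted p = 0.0293). Between arsenite and untreated arrays, which shared a slide, its difference of -0.74 did not pass (limma adjusted p = 0.300). The arsenite and t-BOOH arrays lay on different slides, and slide and condition cannot be told apart in the comparisons between them.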

How the results depend on the processing

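Of the 26 tested results, 14 kept direction and call under every alternative run, among them all 6 ratios of deletion over wild type, the ARR2 differences -2.75 and -2.45, and the ARR2 responses of the wild type. Many alternatives could change the error of a ratio but not its value. Leaving out an array of another condition, or the dye term, left the mean ratio of a condition as it was, such as -2.09 for ARR1 under arsenite. Over 604 alternative values, 17 lost a call, 8 gained one and 15 changed sign. The cause was not tested. With no normalization between arrays, which moved the median of all genes by 0.26 for arsenite in each strain, -0.47 (wild type) and -0.48 (deletion) for t-BOOH, and 0.77 (deletion) and 0.80 (wild type) for arsenite minus t-BOOH, ARR1 was 0.49 for arsenite minus t-BOOH and -0.56 for t-BOOH in the deletion strain, and 0.90 for arsenite minus t-BOOH, 0.89 for arsenite and -0.00443 for t-BOOH in the wild type. There ARR2 in the deletion strain was 0.54 for arsenite minus t-BOOH and 0.74 for t-BOOH. Quantile normalization gave ARR1 -0.60 for arsenite minus t-BOOH in the deletion strain, and 0.15 for it and 0.46 for t-BOOH in the wild type. The scanner's processed signals gave ARR1 -0.091 for t-BOOH in the deletion strain and 0.059 for arsenite minus t-BOOH in the wild type, and ARR2 -0.44 for arsenite minus t-BOOH in the deletion strain. That last ARR2 value was -0.51 with the first spot alone, and -0.56 without the normexp offset, which was chosen after seeing the data. The second spot alone gave ARR1 0.52 for arsenite in the wild type. Array weights gave ARR1 ratio differences of -0.91 for arsenite minus untreated, -0.51 for arsenite minus t-BOOH and -0.40 for t-BOOH minus untreated, and an ARR2 t-BOOH difference of -0.46.

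Leaving out 1 array at a time, ARR1 ran over -0.50 to -0.32 for arsenite minus t-BOOH and -0.073 to 0.26 for t-BOOH in the deletion strain, over -0.14 to 0.12 for arsenite minus t-BOOH and 0.53 to 0.63 for arsenite in the wild type, and over -0.64 to -0.36 for the t-BOOH ratio difference. ARR2 ran over -0.68 to -0.42 for arsenite minus t-BOOH in the deletion strain. The pair's t-BOOH difference ran over -0.050 to 0.40. Called genes of the list ran over 4 to 8 (deletion) and 6 to 11 (wild type) higher for arsenite, 1 to 2 lower for arsenite in the wild type, 1 to 2 lower for t-BOOH in each strain, and 0 to 2 (arsenite) and 0 to 5 (t-BOOH) lower in the ratio. With median centring the t-BOOH count lower in the wild type was 0, and with processed signals it was 2 in each strain.

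Without the 3 arrays that stood apart, chosen after seeing the data, ARR1 was -0.38 (deletion) and 0.090 (wild type) and ARR2 -0.34 (deletion) for arsenite minus t-BOOH. The list counts were then 9 higher and 2 lower (deletion) and 11 higher and 2 lower (wild type) for arsenite, 2 lower for t-BOOH in the deletion strain, and 4 lower in the ratio under each stress.

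Of the 12 arrays, each set against all arrays of the other conditions, 3 correlated best with an array of their own replicate number. Picking at random among those arrays would give 3 of 12 on average. With the replicate block, no call of either gene changed: the ratio difference between arsenite and untreated was -2.75 for ARR2 (limma adjusted p = 6.86e-05) and -0.96 for ARR1 (limma adjusted p = 0.141). Called genes for the t-BOOH minus untreated difference were 17 with the block and 144 without, and for arsenite minus untreated 1 and 2. Slide as a random block was not run, since slide and t-BOOH treatment coincide and the block would return the main fit. ARR2 lay closest to background in the deletion strain of untreated replicate 4.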
